A study of Mus musculus with 214 samples.

Results

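The 10 genes described here, Atf3, Atf4, Ddit3, Trib3, Asns, Gdf15, Fgf21, Hspa5, Herpud1 and Sdf2l1, belong to the integrated stress response and the unfolded protein response. They were taken by symbol from both deposited expression tables, and all 10 were found among the 18647 genes of the WT table and the 19540 genes of the Mgmt-/- table. The question was how each of them changed in the mouse liver after N-nitrosodimethylamine (NDMA), a methylating liver carcinogen, and whether that change differed without O6-methylguanine-DNA methyltransferase (MGMT), the protein that removes methyl groups from the O6 position of guanine. C57BL/6 mice of both sexes carried either RaDR+/+;GPT+/+, called WT here, or RaDR+/+;GPT+/+;Mgmt-/-, called Mgmt-/- here. Both genotypes therefore carried the same reporters, RaDR for homologous recombination and GPT for mutation. Pups were injected intraperitoneally with NDMA at 3.5 mg/kg on postnatal day 8 and 7 mg/kg on postnatal day 15, 10.5 mg/kg in total, or with saline at the same ages. Livers were collected 1, 2 and 5 days, 10 weeks and 10 months after the second injection, and RNA was counted by 3′ digital gene expression, which tags the end of each transcript. Litters, rather than single pups, were assigned to a treatment, so littermates are not fully independent and the p-values below measure the spread between mice.

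In the integrated stress response, kinases that sense different stresses (PERK, GCN2, PKR and HRI) phosphorylate the translation factor eIF2α, which lowers protein synthesis overall while the mRNA of the transcription factor ATF4 is translated more. ATF4 is thus regulated largely at translation, and a transcript measurement does not read its protein. ATF4 acts with the factors CHOP (the product of Ddit3) and ATF3 on genes for amino acid supply such as Asns, on the feedback inhibitor Trib3 and on the secreted hormones GDF15 and FGF21. The unfolded protein response shares PERK with it and adds IRE1 and ATF6, further sensors of the endoplasmic reticulum (ER), which drive chaperones such as BiP (Hspa5) and degradation factors such as HERP (Herpud1). The liver makes and secretes large amounts of protein, and hepatocytes are a main source of circulating FGF21.

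On the GRCm38 mouse genome with the GENCODE vM21 annotation, all 10 are protein-coding genes. They lie at Atf3 chr1:191170296-191218039, Atf4 chr15:80255184-80257541, Ddit3 chr10:127290774-127296288, Trib3 chr2:152337422-152344032 and Asns chr6:7675169-7693254. The secreted and ER genes lie at Gdf15 chr8:70629393-70632456, Fgf21 chr7:45613886-45615490, Hspa5 chr2:34771970-34777547, Herpud1 chr8:94386438-94395377 and Sdf2l1 chr16:17130138-17132383. Ddit3 overlaps Mars and Gm4189 on the opposite strand, and Herpud1 overlaps Gm15890 on the opposite strand. Whether reads were counted by strand is not given in the sources used here, so the Ddit3 and Herpud1 values may include reads of these partners. Mars, which encodes the methionyl-tRNA synthetase, was tested in all 10 comparisons of NDMA with saline and passed in 0 of them.

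Short promoter windows are shown for the 5 members whose promoters hold the letters of an element through which ATF4 or the ER sensors are known to act. RefSeq promoters (GRCm38.p6) were matched for 10 of 10 members, and the 250 bases before each start were searched on both strands for TGATGNAA (the ATF4 and C/EBP composite element), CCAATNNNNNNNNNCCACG (ERSE), ATTGGNCCACG (ERSE-II), TGACGTGG (the core of UPRE) and TGACGTCA (CRE). Windows are written along the strand of the gene with the motif in capitals, or its reverse complement where the element lies on the opposite strand.
Atf3, chr1:191183431-191183448, minus strand: cgcacTTGCATCAccaag
Asns, chr6:7693220-7693237, minus strand: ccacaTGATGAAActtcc
Fgf21, chr7:45615617-45615634, minus strand: ccccaTTGCATCAtccgt
Herpud1, chr8:94386312-94386329, plus strand: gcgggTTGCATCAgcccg
Herpud1, chr8:94386372-94386392, plus strand: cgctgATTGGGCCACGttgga
Hspa5, chr2:34772020-34772048, plus strand: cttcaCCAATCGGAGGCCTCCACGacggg
The element of Asns began 23 bases before the start, those of Atf3, Fgf21 and Herpud1 began 110, 139 and 112 bases before it, and the ER elements of Herpud1 and Hspa5 began 52 and 65 bases before it. Distances are from the RefSeq starts. For Atf3, Asns and Hspa5 these starts lie inside the GENCODE spans given above, and so do their windows. Of all 32851 promoters in the table, 3.45% held TGATGNAA, 0.113% held ERSE, 0.0304% held ERSE-II, 0.563% held TGACGTGG and 1.55% held TGACGTCA. None of these letters was found in the windows of Atf4, Ddit3, Trib3, Gdf15 and Sdf2l1. A match is a description of the sequence and not of binding.

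Values were available for 213 of 214 labelled mice, and 1 Mgmt-/- saline mouse of month 10 was not analysed here. The 117 WT libraries held 150038 to 4791649 reads (median 1700411) and the 96 Mgmt-/- libraries 713584 to 7740710 (median 2306714). Of the WT libraries, 4 held under 300000 reads, all from NDMA females. The authors normalised each genotype by itself, so levels below are compared within a genotype only. Mgmt itself was at 13 to 130 (median 45.8) in WT libraries and at 0 to 9.67 (median 1.09) in Mgmt-/- libraries, each on the scale of its own table. Among WT mice, 26 given NDMA and 21 given saline were collected on day 1, 8 of each on day 2, 8 given NDMA and 7 given saline on day 5, 8 of each in week 10, and 13 given NDMA and 10 given saline in month 10. The Mgmt-/- mice were 12 of each treatment on day 1, 8 with NDMA and 7 with saline on day 2, 8 with NDMA and 6 with saline on day 5, 8 of each in week 10, and 13 with NDMA and 12 with saline in month 10. These 6 saline mice at day 5 exclude 2 libraries with the kidney transcript Kap above 1000, against at most 13.9 in the other Mgmt-/- libraries.

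Some WT libraries stood apart from their labels. Cdkn1a, which encodes the cell cycle inhibitor p21 and is the best known target of p53, had a median of 15.1 with saline and 218 with NDMA in WT livers at day 1. Saline replicate D209074 was at 359, whereas NDMA replicates D209072 and D209077 were at 30.3 and 16.3, and the sex-specific genes of these 2 NDMA libraries also went against their labels. At days 2 and 5, WT saline replicates D215004 and D215012 were at 212 and 109, against saline medians of 16.8 and 9.54. In Mgmt-/-, the lowest NDMA library was above the highest saline library in Cdkn1a at days 1, 2 and 5 and week 10. All labels were kept as given, and WT counts are also given without these 5 libraries, a choice made after their values had been seen. At WT days 2 and 5 and week 10 one library batch held the males and the other the females, so batch and sex cannot be told apart there.

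More of these genes were called, and at later times, in Mgmt-/- than in WT livers after NDMA. A gene was called when its limma adjusted p was under 0.05 and its log2 fold change was over 0.58 in size, with fold changes on the scale of log2(normalised count + 1). Over the 5 times, 15 of 44 member tests were called higher and 4 lower in Mgmt-/-, against 4 higher and 1 lower of 42 in WT. Over all gene tests 8.85% were higher and 5.93% lower in Mgmt-/-, and 2.14% higher and 1.72% lower in WT, so more calls were made in Mgmt-/- over the whole table too. Depth differed as well at days 2 and 5, where median reads with NDMA were 900314 and 950371 in WT and 3109180 and 3136172 in Mgmt-/-. With saline they were 1636762 and 1506105 in WT and 3250386 and 3046244 in Mgmt-/-. The part of depth in the counts of calls was not tested. Ddit3, Gdf15 and Fgf21 rose at days 1, 2 and 5 in Mgmt-/-, Ddit3 and Fgf21 rose at week 10 as well, and Herpud1 fell at days 1, 2 and 5 and month 10. Atf3 was below the filter on low values (a mean of at least 5) in every comparison and is treated apart.

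At day 1 in Mgmt-/-, 4 of the 9 members tested were higher and 1 lower, where 9.06% of all genes tested were higher and 8.64% lower. At day 2, 5 of 9 were higher and 1 lower, against 12.4% and 7.5% of all genes. At day 5, 4 of 9 were higher and 1 lower, against 11.1% and 6.71%. Later, 2 of 9 were higher and 0 lower at week 10, against 7.27% and 3.88%, and 0 of 8 were higher and 1 lower at month 10, against 4.75% and 2.99%. The median log2 fold change of the members tested was 0.24, 0.73, 0.37, 0.64 and 0.25 at the 5 times in turn, whereas the median of all genes tested lay between -0.01 and 0.04.

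At day 1 in WT, 2 of 8 members were higher (Asns and Gdf15) and 0 lower, where 5.01% of all genes tested were higher and 4.19% lower. At day 2, 1 of 9 was higher (Sdf2l1) and 0 lower, against 3.33% and 2.91% of all genes. At day 5, 1 of 9 was higher (Gdf15) and 1 lower (Hspa5), against 2.22% and 1.39%. At week 10 and at month 10, 0 of 8 members were called, where 0.0249% of all genes were higher and 0.0% lower at week 10 and 0.0% each way at month 10. At an unadjusted p under 0.05 limma gave 0 members at week 10 and 1 at month 10 (Atf4), where it gave 350 of 8048 and 757 of 9254 genes. The count tests, edgeR and DESeq2, called 0 members at both times. Without the 5 libraries that stood apart, the WT counts were 3 at day 1 (Ddit3 was added at 0.67), 2 at day 2 (Hspa5 was added at -0.63) and 2 at day 5. Calls over all genes rose too, from 452 higher and 378 lower to 561 and 480 at day 1. They went from 285 and 249 to 402 and 380 at day 2, and from 192 and 120 to 342 and 230 at day 5.

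**Figure D1:**
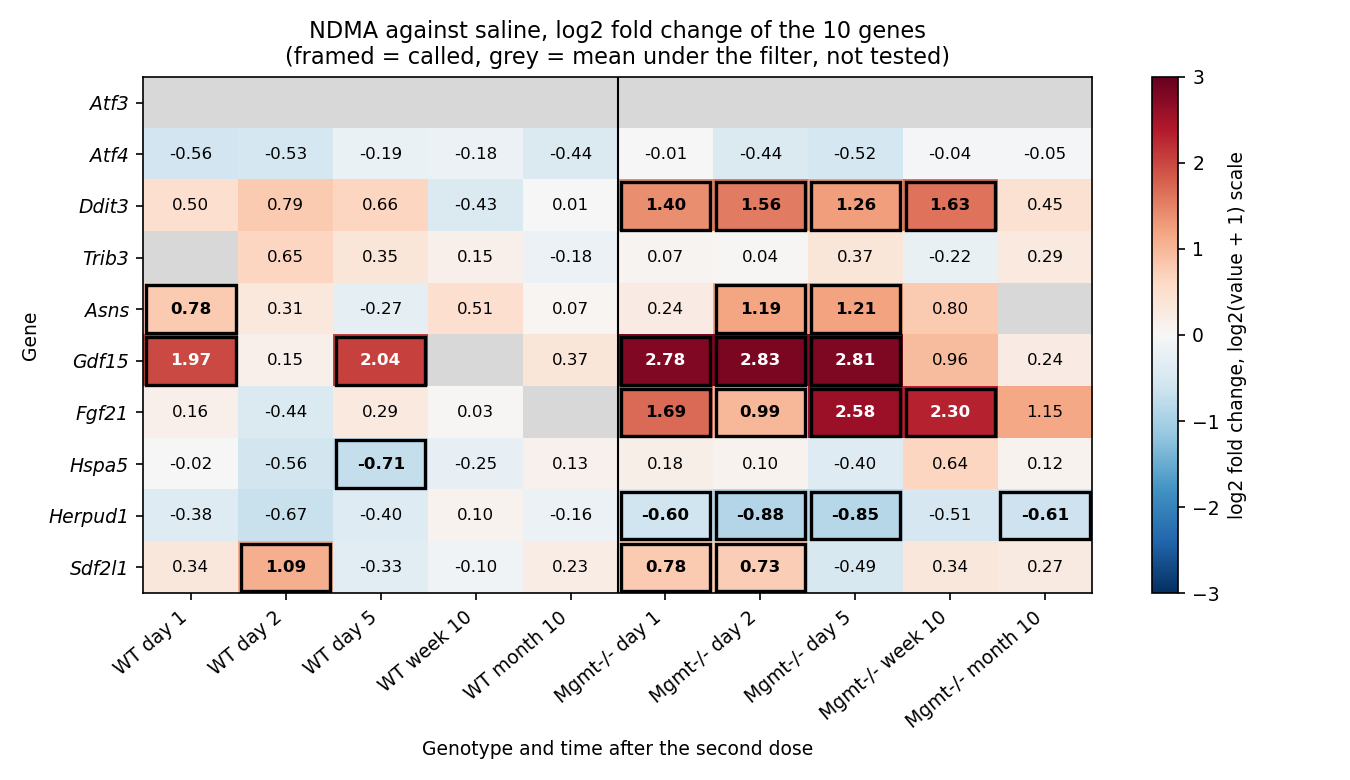
Log2 fold change of NDMA against saline (colour) for the 10 genes (rows) in each genotype and time after the second dose (columns). Framed cells were called, grey cells were below the filter on low values; 19 frames lie in the Mgmt-/- columns and 5 in the WT columns.

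Atf4, whose product is the central transcription factor of the response, was not called higher in any of the 10 comparisons. At day 5 in Mgmt-/- livers its lowest, median and highest values were 49.1, 66.3 and 75 with saline and 29.8, 42.9 and 58.0 with NDMA. Of the 8 NDMA mice, 6 lay below all saline mice. The log2 fold change was -0.52 (SE 0.16, limma adjusted p = 0.0232), which is short of the fold threshold, as was the value at day 2 (-0.44, adjusted p = 0.049). WT values at day 1 were 27.8, 47 and 110 with saline and 10.4, 30.9 and 69.9 with NDMA, a log2 fold change of -0.56 (SE 0.14, limma adjusted p = 0.0017). At the other times the values were -0.53 to -0.18 in WT and -0.05 to -0.01 in Mgmt-/-, and the smallest adjusted p among them was 0.211.

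Ddit3 encodes CHOP, a transcription factor that promotes cell death under lasting ER stress, and it was higher in Mgmt-/- livers from day 1 to week 10. At day 2 its lowest, median and highest values were 5.87, 14.9 and 21.5 with saline and 31.3, 43.9 and 72.0 with NDMA, so that the groups did not overlap. They did not overlap at day 5 either, with 8.39, 14.0 and 17.0 against 23.5, 31.2 and 58.2. At day 1, 11 of 12 NDMA mice were above all saline mice, with 9.28, 17.1 and 26.0 against 25.8, 46.5 and 73.5. The rise was 2.63-fold (log2 1.40, SE 0.18, limma adjusted p = 1.06e-07), 2.95-fold (1.56, SE 0.22, adjusted p = 5.62e-06) and 2.39-fold (1.26, SE 0.22, adjusted p = 0.000151) on days 1, 2 and 5. In both library batches of day 1 it was called, at 1.44 and 1.30.

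At week 10 Ddit3 was 3.10-fold higher in Mgmt-/- (log2 1.63, SE 0.29, limma adjusted p = 0.000346). The saline values were 5.22, 18.1 and 61.6 and the NDMA values 31.7, 62.6 and 88.6, and 4 of 8 NDMA mice lay above every saline mouse. At month 10 the groups covered nearly the same range, 2.89 to 35.6 and 9 to 36.4 (log2 0.45, SE 0.29, adjusted p = 0.352). The WT medians at day 1 were 9.51 and 15.5, and the log2 fold change of 0.50 (SE 0.16, adjusted p = 0.0221) did not reach the fold threshold with all libraries included. WT values at days 2 and 5 were 0.79 and 0.66 with adjusted p of 0.121 and 0.385, and at week 10 and month 10 they were -0.43 and 0.01.

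Atf3 encodes a stress-induced factor that is nearly silent in resting liver, and its tags were few. At week 10 it was at 0 in Mgmt-/- livers in 6 of 8 saline mice and at most 1.23, whereas the 8 NDMA mice lay between 2.64 and 17.6 with a median of 7.04. Summed over mice, 89 reads with NDMA stood against 2 with saline, a ratio of 24.5 per read sequenced (exact 95% interval 6.59 to 205, for counting error only). At days 1, 2 and 5 the sums were 103 against 10, 50 against 3 and 57 against 10 reads. At month 10 they were 41 against 26.

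Because Atf3 was below the filter, the difference of mean log2(normalised count + 1) was tested by two-sided permutation over mice, adjusted over the 10 comparisons, a test chosen after the values had been seen. In Mgmt-/- the difference was 2.45 at day 1 (adjusted permutation p = 0.0002, from the smallest p that 100000 resamples can give, 2e-05), 1.91 at day 2 (0.00829, exact), 1.49 at day 5 (0.0133, exact) and 2.79 at week 10 (0.000777, exact). At month 10 it was 0.13 (adjusted permutation p = 0.877). In WT livers at day 1 it was 0.83 (adjusted permutation p = 0.019), with 143 reads against 46, and 1.06 (0.0024) without the libraries that stood apart, among them the saline mouse with the highest Atf3 value, 11.8. The other WT times had adjusted permutation p of 0.162 or more.

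Trib3, whose product binds and restrains ATF4 and CHOP, was not called in any of its 9 tests. In Mgmt-/- at day 5 it ran from 2.56 to 12.3 (median 6.11) with saline and from 4.89 to 13.7 (median 6.89) with NDMA. Its log2 fold changes lay between -0.22 and 0.65, and the highest, in WT livers at day 2, included the NDMA replicate D215006 at 84.1, a library of 150038 reads whose next highest group member was at 16.8.

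**Figure D2:**
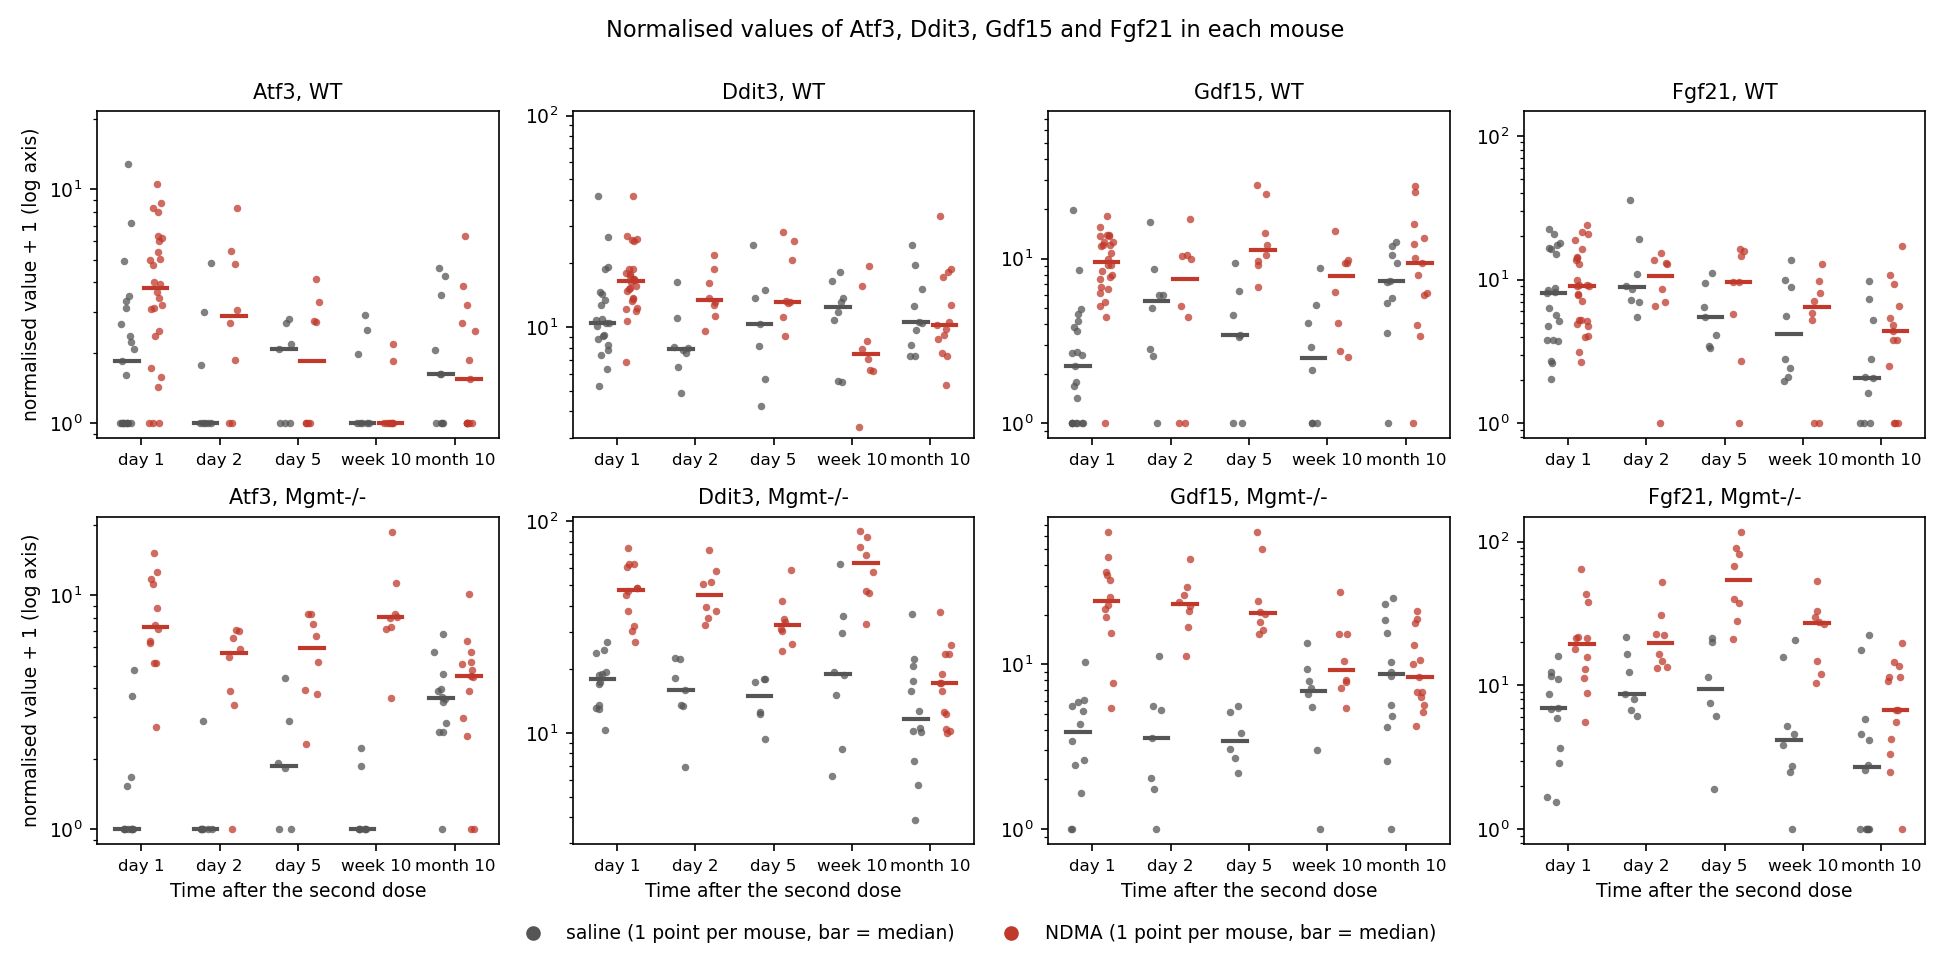
Normalised count + 1 (log axis) of Atf3, Ddit3, Gdf15 and Fgf21 in every mouse, by time and treatment, with WT in the upper and Mgmt-/- in the lower row; each point is 1 mouse and the bar is the group median. In Mgmt-/- the Ddit3 groups were apart at days 2 and 5, Gdf15 at day 5 and Atf3 at week 10, and all 4 genes overlapped at month 10.

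Asns encodes asparagine synthetase, a classical ATF4 target that makes asparagine from aspartate. Its Mgmt-/- values at day 2 were 28.9, 36.2 and 52.5 with saline and 62.7, 98.4 and 124 with NDMA. At day 5 they were 27.3, 38.6 and 44.4 against 68.0, 82.1 and 116. At neither time did the groups overlap, and Asns was 2.28-fold (log2 1.19, SE 0.17, limma adjusted p = 5.03e-06) and 2.31-fold higher (1.21, SE 0.16, adjusted p = 2.59e-06). One day after exposure the Mgmt-/- groups were not separated, with medians of 36.7 and 46.8 and a log2 fold change of 0.24 (95% interval -0.19 to 0.67). WT livers at day 1 went from 5.12, 20.9 and 46.6 to 10.9, 34.2 and 115, with 9 of 26 NDMA mice above all saline mice. That was a 1.72-fold rise (log2 0.78, SE 0.18, limma adjusted p = 0.000962). Within the 3 batches of WT day 1 the log2 fold changes were 0.77, 0.53 and 0.99, and the last of them was called.

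The level of Asns also differed between sexes in several groups, which is given as a description. In WT livers at week 10 saline females had a mean of 4.38 ± 2.73 (SD, n = 4) and saline males 32.7 ± 16.1 (SD, n = 4), and the ranges, 1.41 to 7.63 and 13.5 to 51.9, did not overlap. With NDMA the means were 8.44 ± 3.08 and 34.1 ± 13.5. WT saline pups at day 5 showed the same order, with females at 11.1 ± 4.30 (range 5.03 to 15.1, n = 4) and males at 43.8 ± 12.1 (30.1 to 53, n = 3), whereas with NDMA the means were 15.9 and 18.5. In the WT mice of day 5 and week 10 batch and sex cannot be told apart. WT saline mice at month 10 overlapped, with females at 0 to 2.49 (n = 6) and males at 0 to 47.9 (n = 4), and with NDMA the females were at 0 to 1.40 (n = 6) and the males at 2.98 to 24.3 (n = 7). Mgmt-/- mice of week 10 came from a single batch, where saline females were at 5.39 ± 4.74 and saline males at 24.7 ± 9.62 (n = 4 each), whereas NDMA females and males were at 19.0 ± 6.69 and 21.4 ± 21.2. At month 10, also a single batch, Mgmt-/- females were at 1.43 ± 1.56 with saline (n = 7) and 1.16 ± 1.46 with NDMA (n = 7), and males at 8.91 ± 6.20 (n = 5) and 9.29 ± 4.73 (n = 6). At day 1 the means of both sexes were close, 22.5 and 22.3 in WT saline females and males and 34.5 and 30.7 in Mgmt-/- saline females and males.

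**Figure D3:**
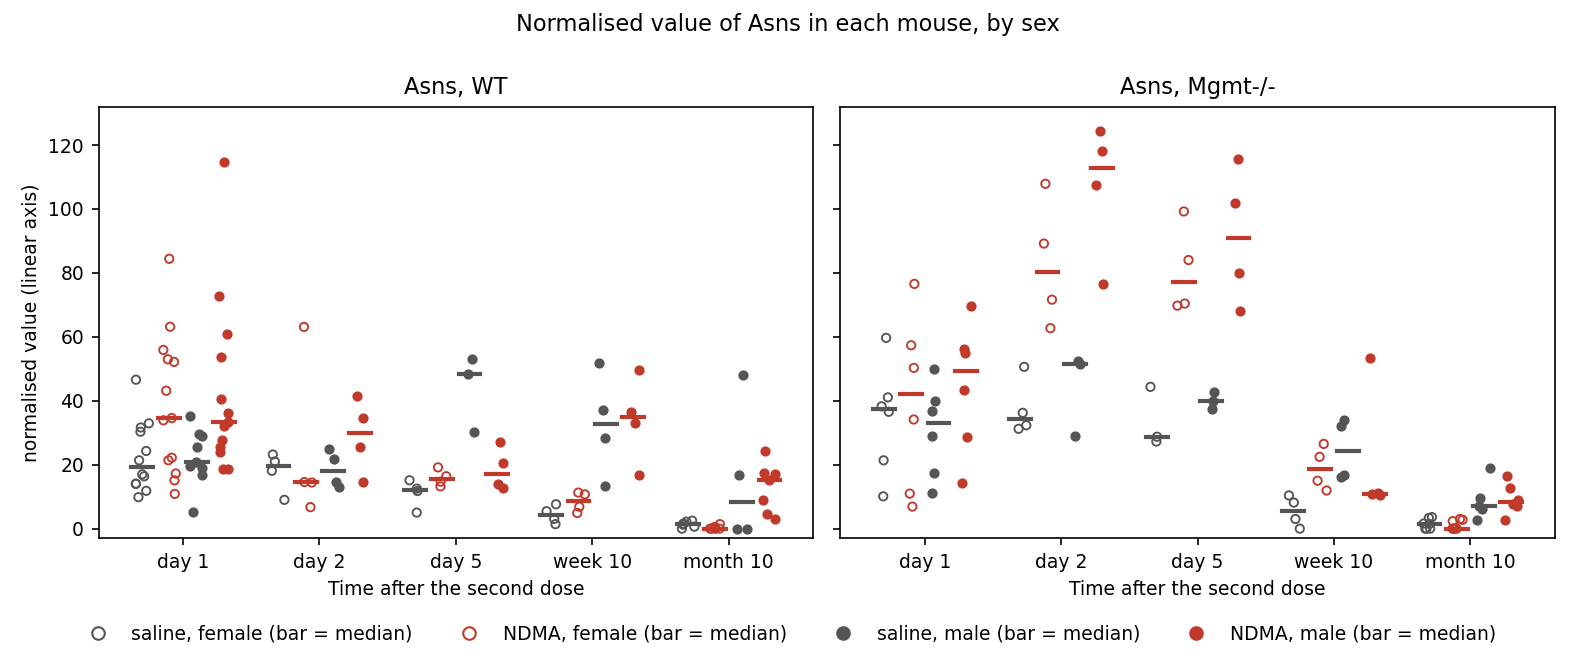
Normalised count of Asns (linear axis) in every mouse by time and treatment, with open points for females and filled points for males, in WT and Mgmt-/- livers. Mgmt-/- mice given NDMA lay above all saline mice at days 2 and 5, and at month 10 the female values were at most 3.62 in Mgmt-/-.

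Gdf15 encodes a secreted factor of the TGF-β family that acts on the hindbrain receptor GFRAL and is induced by both ATF4 with CHOP and by p53. Gdf15 passed the filter on low values through the NDMA mice, since saline means were 2.74 to 3.36 in Mgmt-/- at days 1, 2 and 5 and 2.40 and 3.15 in WT at days 1 and 5, and its fold changes are therefore not ranked against the other members. Without a filter these 5 values were called too. Its Mgmt-/- values at day 5 were 1.20, 2.44 and 4.56 with saline and 14.2, 19.4 and 62.7 with NDMA, without overlap. At day 1 they were 0, 2.87 and 9.30 against 4.41, 23.3 and 62.4, and at day 2 0, 2.58 and 10.3 against 10.2, 22.3 and 42.8, with 10 of 12 and 7 of 8 NDMA mice above all saline mice. The rises were 6.86-fold (log2 2.78, SE 0.33, limma adjusted p = 2.86e-08), 7.09-fold (2.83, SE 0.40, adjusted p = 8.4e-06) and 7.00-fold (2.81, SE 0.34, adjusted p = 7.16e-07) at days 1, 2 and 5. Under the alternatives run, these log2 values ranged from 1.83 to 3.18, 1.81 to 3.25 and 1.93 to 3.43.

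The rise of Gdf15 was not called at the later times in Mgmt-/-. At week 10 the medians were 5.88 and 8.23 (log2 0.96, SE 0.46, limma adjusted p = 0.206) and at month 10 they were 7.76 and 7.32 (0.24, SE 0.40). WT livers at day 1 went from 0, 1.23 and 18.6 to 0, 8.57 and 17.1, a 3.92-fold rise (log2 1.97, SE 0.29, limma adjusted p = 3.55e-07). The saline mouse at 18.6 was replicate D209074, whose Cdkn1a also went against its label, and without the libraries that stood apart the log2 value was 2.26. Within the 3 batches it was 1.76, 1.43 and 2.37, of which the second was not called. At WT day 5 the log2 fold change was 2.04 (SE 0.52, adjusted p = 0.0304), called in males (2.69) and not in females (1.49), and the call was lost on leaving out any one of saline replicates D202009, D202010, D202011 and D215010 or NDMA replicates D202014 and D202015, with values of 1.73 to 2.29 over all 15 such fits. At WT day 2 it was 0.15 (SE 0.63).

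Fgf21 encodes a hormone that the liver releases in fasting and stress, and which signals through FGF receptors with the co-receptor β-klotho. Mgmt-/- mice at day 5 went from 0.911, 8.47 and 20.4 with saline to 20.0, 53.2 and 116 with NDMA, and 7 of 8 NDMA mice exceeded every saline mouse. At week 10 it went from 0, 3.19 and 19.6 to 9.46, 26.1 and 52.5, with 5 of 8 above. The log2 fold changes were 1.69 at day 1 (SE 0.38, limma adjusted p = 0.000959), 0.99 at day 2 (SE 0.31, adjusted p = 0.0187), 2.58 at day 5 (SE 0.35, adjusted p = 1.44e-05) and 2.30 at week 10 (SE 0.50, adjusted p = 0.00262). At month 10 the medians were 1.70 and 5.79 and the ranges nearly the same (log2 1.15, SE 0.47, adjusted p = 0.123). The call at day 2 was lost without NDMA replicate D389095 (0.74) and in each sex alone (0.90 in males, 1.06 in females). That at day 1 was lost in batch 200803Eng (1.47) and in males (0.94), and that at week 10 in males (1.70). In WT livers the 4 tested values were 0.16, -0.44, 0.29 and 0.03 at days 1, 2, 5 and week 10, all with an adjusted p of 0.686 or more.

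Of the genes for receptors of both hormones, 1 of 15 Mgmt-/- tests was higher and 1 lower (6.67% each, against 8.85% and 5.93% of all gene tests), and 1 of 13 WT tests was lower (7.69%, against 1.72%). Klb, which encodes β-klotho, was lower in Mgmt-/- livers at week 10 (fell by 1 on the log2 scale, limma adjusted p = 0.00211), from a mean of 37.2 ± 11.6 (SD, n = 8) to 17.6 ± 3.99 (n = 8), at a time when Fgf21 was higher. It was also lower in WT livers at day 2 (-0.96, adjusted p = 0.0173). Fgfr1 was higher in Mgmt-/- livers at month 10 (1.07, adjusted p = 0.0153). Fgfr4 passed the filter in 2 comparisons and was called in 0 of them.

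The ER genes did not move as one group. Hspa5 encodes BiP, the most abundant ER chaperone and a usual marker of the unfolded protein response, and the main limma fit did not call it higher in any comparison. Mgmt-/- values at day 2 were 690, 770 and 1463 with saline and 701, 908 and 1136 with NDMA (log2 0.10, 95% interval -0.20 to 0.39). The highest value was at week 10, 0.64 (SE 0.21, limma adjusted p = 0.0523), with medians of 571 and 903. With library totals set equal it was 0.85 and was called higher (limma adjusted p = 0.0201). That scaling also raised the higher calls over all genes at week 10 from 704 to 1154. The saline mice of that time included replicate D209001 at 1220, with the next highest at 619. The WT change at day 5 was called lower, from 322, 595 and 877 to 295, 337 and 428 (log2 -0.71, SE 0.19, limma adjusted p = 0.0374). The saline mouse at 322 was replicate D215012, which stood apart in Cdkn1a, and the value was -0.81 without it. The WT call at day 5 held in 4 of 15 fits that each left out 1 mouse (saline D215010 or D215012, or NDMA D215014 or D215016) and was lost on leaving out any other, with values of -0.81 to -0.63 over the 15. It was -1.13 in males and -0.35 in females, which were also separate batches.

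Herpud1, whose product helps to remove misfolded proteins from the ER and is itself induced in the unfolded protein response, was lower with NDMA. Its Mgmt-/- values at day 2 fell from 257, 380 and 634 to 144, 219 and 293, with 6 of 8 NDMA mice below all saline mice. That was a 1.84-fold fall (log2 -0.88, SE 0.15, limma adjusted p = 6.13e-05). It was also lower at day 1 (-0.60, SE 0.17, adjusted p = 0.00883), day 5 (-0.85, SE 0.27, adjusted p = 0.0383) and month 10 (-0.61, SE 0.16, adjusted p = 0.0104). At month 10 the values were 473, 554 and 1085 with saline and 264, 423 and 628 with NDMA, and 9 of 13 NDMA mice lay below all saline mice. The fall was not called once totals were set equal at day 1 (-0.40) and day 5 (-0.69), nor at day 5 with the 2 Kap libraries kept (-0.57), nor on leaving out any one of saline replicates D389024 and D389030 or NDMA replicates D389066, D389072, D389078, D389090 and D389096, where all 14 such fits gave -1.01 to -0.61. At month 10 edgeR (-0.56) and DESeq2 (-0.57) fell short of the fold threshold, and within the day 1 batches the values were -0.79 and -0.22. In males the call was lost at day 1 (-0.74), day 2 (-0.57), day 5 (-1.11) and month 10 (-0.31), and in females at day 1 (-0.46) and day 5 (-0.59). WT values were -0.38, -0.67, -0.40, 0.10 and -0.16 at the 5 times, none of them called.

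Sdf2l1 encodes a small ER protein that works with BiP and its co-chaperones. In WT livers at day 2 it rose from 6.03, 7.80 and 15.4 to 12.7, 20.4 and 36.8, with 7 of 8 NDMA mice above all saline mice (log2 1.09, SE 0.26, limma adjusted p = 0.0122). Mgmt-/- mice showed a rise at day 1 (0.78, SE 0.24, adjusted p = 0.0154) and day 2 (0.73, SE 0.27, adjusted p = 0.0462), with medians of 10.1 and 17.5 at day 1 and of 9.81 and 14.3 at day 2. At day 5 the median was 11.6 with saline and 6.45 with NDMA (-0.49, adjusted p = 0.313). The WT call was lost in edgeR (0.78, with 5 of 8 saline mice) and held in edgeR with all 8 (1.08). The Mgmt-/- call at day 1 was lost in 6 of 12 alternatives, among them edgeR (0.64) and DESeq2 (0.65), both with 11 of 12 NDMA mice, a pseudocount of 5 (0.58), no covariates (0.78), batch 200803Eng (0.62) and males (0.45), and held in edgeR with all 12 (0.65). The call at day 2 was lost in 6 of 9 alternatives, with a pseudocount of 5 (0.55), no filter (0.73), no covariates (0.70), DESeq2 (0.75), males (0.57) and females (0.87), and in 11 of 15 fits that each left out 1 mouse, at 0.64 to 0.94 over the 15, and held in the fits without saline D389006 or NDMA D389065, D389071 or D389095.

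**Figure D4:**
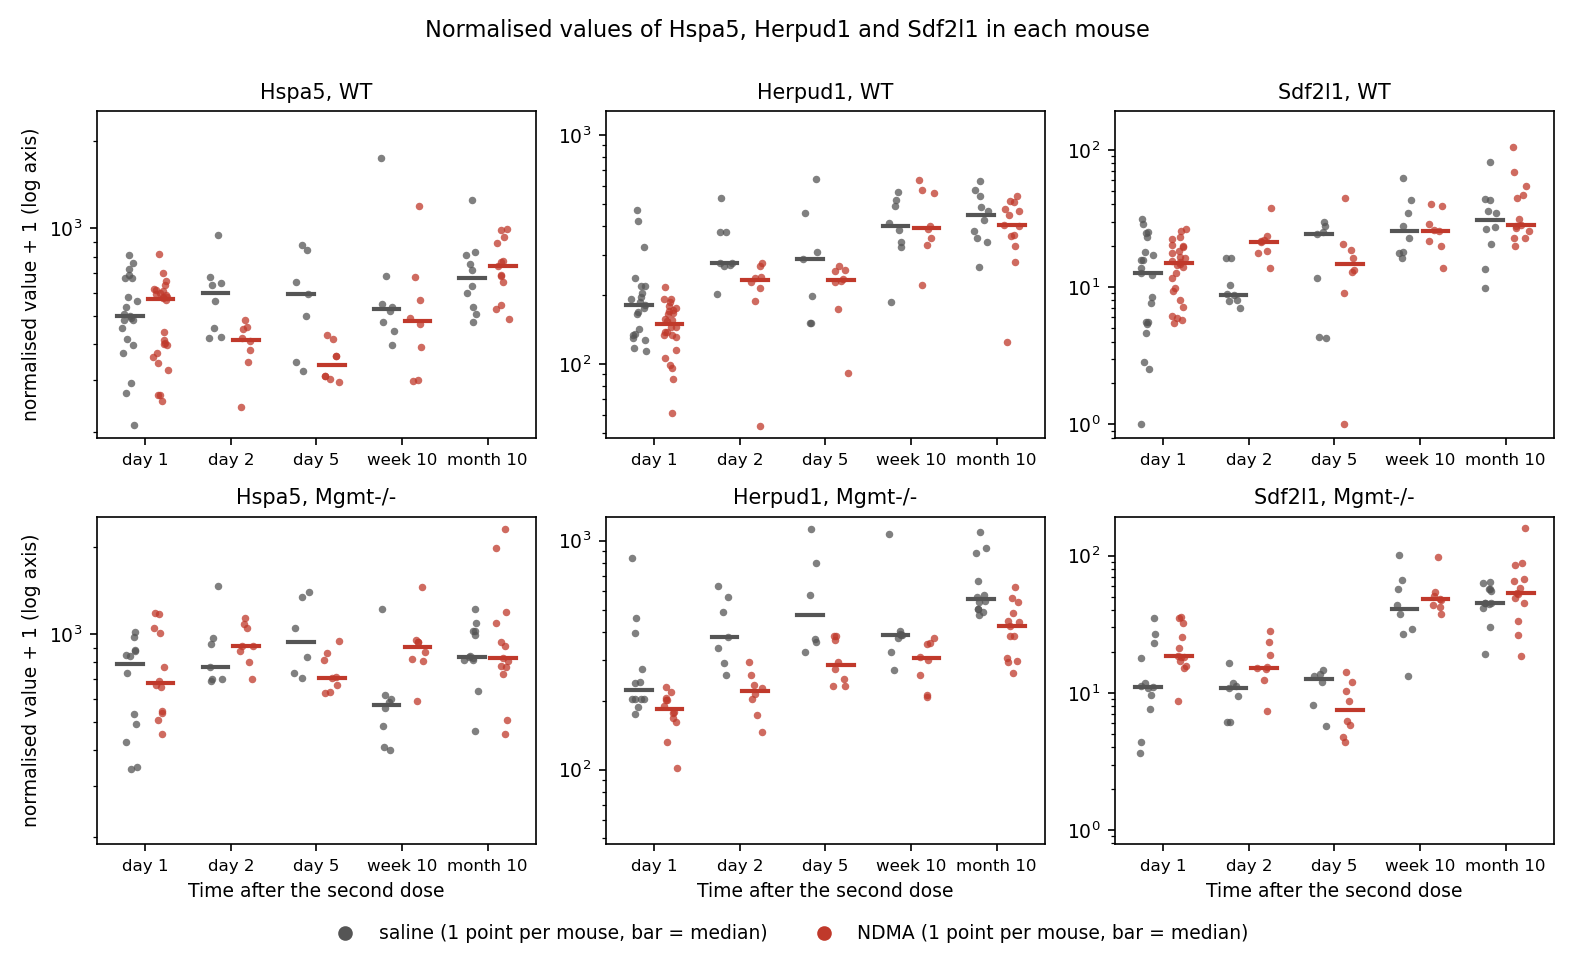
Normalised count + 1 (log axis) of Hspa5, Herpud1 and Sdf2l1 in every mouse by time and treatment, WT above and Mgmt-/- below; each point is 1 mouse and the bar is the group median. Herpud1 medians were lower with NDMA in Mgmt-/- at all 5 times. Hspa5 medians were higher at day 2 and week 10, lower at days 1 and 5 and nearly equal at month 10 (835 with saline and 830 with NDMA). At day 1 the Hspa5 means went the other way (692 and 770), with a log2 fold change of 0.18 that was not called.

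Whether the response differed between genotypes was tested directly, as a genotype by treatment term in edgeR on reads of both genotypes scaled together. Ddit3 at week 10 had a term of 1.84 on the log2 scale (edgeR adjusted p = 0.0208), and Asns at day 5 a term of 1.78 (edgeR adjusted p = 0.00338). At that time 1 of 9 members was called against 1.82% of all genes, and at week 10 1 of 8 against 6.0%. At days 1 and 2 and month 10, 0 of 9, 0 of 9 and 0 of 7 members were called, where 0.00993%, 3.83% and 1.58% of all genes were. At an unadjusted p under 0.05 edgeR gave 3, 5 and 1 of them, where it gave 979 of 10068, 1585 of 9283 and 1269 of 8660 genes. Limma on the authors' values called 0, 1 (Gdf15 at day 2, 2.63) and 0 members, where it called 80 of 9451, 470 of 9137 and 112 of 9717 genes. The terms of Ddit3 were 0.88, 0.90 and 0.71 at days 1, 2 and 5 (edgeR adjusted p = 0.106, 0.242 and 0.509), and those of Fgf21 1.48, 1.31, 1.38 and 1.9 at days 1, 2, 5 and week 10, with an adjusted p of 0.166 or more. For Gdf15 the term was 0.90 at day 1, 2.42 at day 2 (edgeR adjusted p = 0.1) and 0.94 at day 5. With the 3 WT saline mice kept that the count fit left out at day 2, the Gdf15 term was 2.33 and was called. In limma the Asns term at day 5 was 1.45 and not called. Genotype and library batch cannot be told apart at days 2 and 5 and week 10, since the 2 genotypes share batches at day 1 and month 10 only.

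Within Mgmt-/- livers the change was compared between times that share a library batch. For day 1 minus day 2, 0 of 9 members differed (0.0% of all genes), for day 1 minus day 5, 0 of 9 (0.533%), and for week 10 minus month 10, 0 of 9 (0.469%). At an unadjusted p under 0.05 limma gave 2, 4 and 1 members, and edgeR called 0 in each contrast. Over all genes, limma gave 0 calls and 651 genes of 9571 at an unadjusted p under 0.05 for day 1 minus day 2, and edgeR 0 calls and 766 such genes. For day 1 minus day 5 limma gave 996 such genes of 9571, and for week 10 minus month 10 it gave 809 of 10020. Sdf2l1 had the lowest p in the contrast of day 1 with day 5, where its change was higher by 1.35 at day 1 (limma adjusted p = 0.168). For Ddit3 the change was higher by 1.16 at week 10 than at month 10 (limma adjusted p = 0.456). Calls of Ddit3 and Fgf21 at week 10 and not at month 10 are therefore no evidence that the change differed between these times.

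Other genes of the 2 pathways, from lists chosen by known function, are given by list, and each count is to be read against the shares over all gene tests, 8.85% higher and 5.93% lower in Mgmt-/- and 2.14% and 1.72% in WT. Upstream, Eif2ak2, which encodes PKR, a kinase that senses double-stranded RNA and is induced by interferon, was higher in Mgmt-/- at day 1, day 2, day 5 and month 10 (log2 0.66, 0.62, 0.74 and 0.80; limma adjusted p = 0.0031, 0.00413, 0.00424 and 0.011). Eif2ak1 (HRI) and Eif2ak3 (PERK) were called in 0 of 10 and 0 of 5 tests, and Eif2ak4 (GCN2) was lower in WT livers at day 1 (-0.76), where it passed the filter through the saline mice alone. Ppp1r15b, which encodes the constitutive subunit of the eIF2α phosphatase, was lower in Mgmt-/- livers at week 10 (-0.75) and month 10 (-0.66), and its stress-induced counterpart Ppp1r15a, the usual CHOP target, was called in 0 of 10. Of 76 tests in the list of eIF2 kinases, eIF2 and phosphatase genes in Mgmt-/-, 4 were higher (5.26%) and 3 lower (3.95%), and of 75 in WT, 1 was higher and 1 lower.

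Among bZIP partners and feedback genes of ATF4, 9 of 55 Mgmt-/- tests were higher and 1 lower, and 1 of 49 WT tests was higher. Nfe2l2, which encodes the oxidative stress factor NRF2, accounted for 5 of these 10 rises, at 1.15, 1.25, 1.16 and 0.91 in Mgmt-/- from day 1 to week 10 and 0.63 in WT at day 1. Nupr1, a stress-induced chromatin protein, was higher in Mgmt-/- at day 1 (0.84), day 5 (0.63) and week 10 (1.48). Cebpb, a partner of ATF4 at the composite element, was higher at Mgmt-/- day 5 (0.93). Amino acid genes under ATF4 were higher in 13 and lower in 5 of 54 Mgmt-/- tests, and higher in 2 and lower in 4 of 52 in WT. The median log2 fold change of this list in Mgmt-/- was -0.02, 0.25 and 0.24 at days 1, 2 and 5, against 0.02, 0.03 and 0.03 over all genes tested. In WT it was 0.40, -0.29 and -0.21, against -0.03, -0.08 and -0.07. Gpt2, an alanine aminotransferase, was higher at WT day 1 (0.80) and at Mgmt-/- days 1, 2 and 5 (1.15, 0.73 and 1.5), and the folate enzyme Mthfd2 at Mgmt-/- days 1 and 2 and week 10 (0.84, 0.92 and 2.31). At week 10 Mthfd2 passed the filter through the NDMA mice alone (mean 14.2, against 2.80 with saline). Shmt2, its partner in mitochondrial serine use, moved the other way, at -0.77 and -0.66 in WT and -0.86 and -0.90 in Mgmt-/- at days 1 and 2.

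The aminoacyl-tRNA synthetases, of which several are ATF4 targets, were called higher in 2 and lower in 3 of 70 Mgmt-/- tests and higher in 1 and lower in 2 of 69 in WT. Aars, the alanyl enzyme, was lower at days 2 and 5 in both genotypes (-0.76 and -1.01 in WT, -0.62 and -0.67 in Mgmt-/-). Wars, the tryptophanyl enzyme and also an interferon-induced gene, was higher at WT day 1 (0.59) and Mgmt-/- days 1 and 2 (0.68 at both), and Tars was lower at Mgmt-/- day 5 (-0.86). ER chaperones and folding enzymes were higher in 5 (5.0%) and lower in 3 (3.0%) of 100 Mgmt-/- tests, below the shares over all gene tests, and lower in 1 of 97 in WT, with list medians of 0.22, 0.24 and -0.13 in Mgmt-/- at days 1, 2 and 5. Manf, a secreted ER stress protein, was higher in Mgmt-/- at day 1 and week 10 (1.06 at both), Creld2 at day 1 (1.04), and the BiP exchange factor Sil1 was lower at days 1 and 5 (-0.58 and -0.63). Of the sensors of the unfolded protein response and ER-associated degradation genes, 1 of 111 Mgmt-/- tests was higher (Creb3l2 at week 10, 0.67) and 0 of 109 WT tests were called, and Ern1, Xbp1 and Atf6 were called in 0 of 10 tests each. Splicing of Xbp1 cannot be read from 3′ tags.

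**Figure D5:**
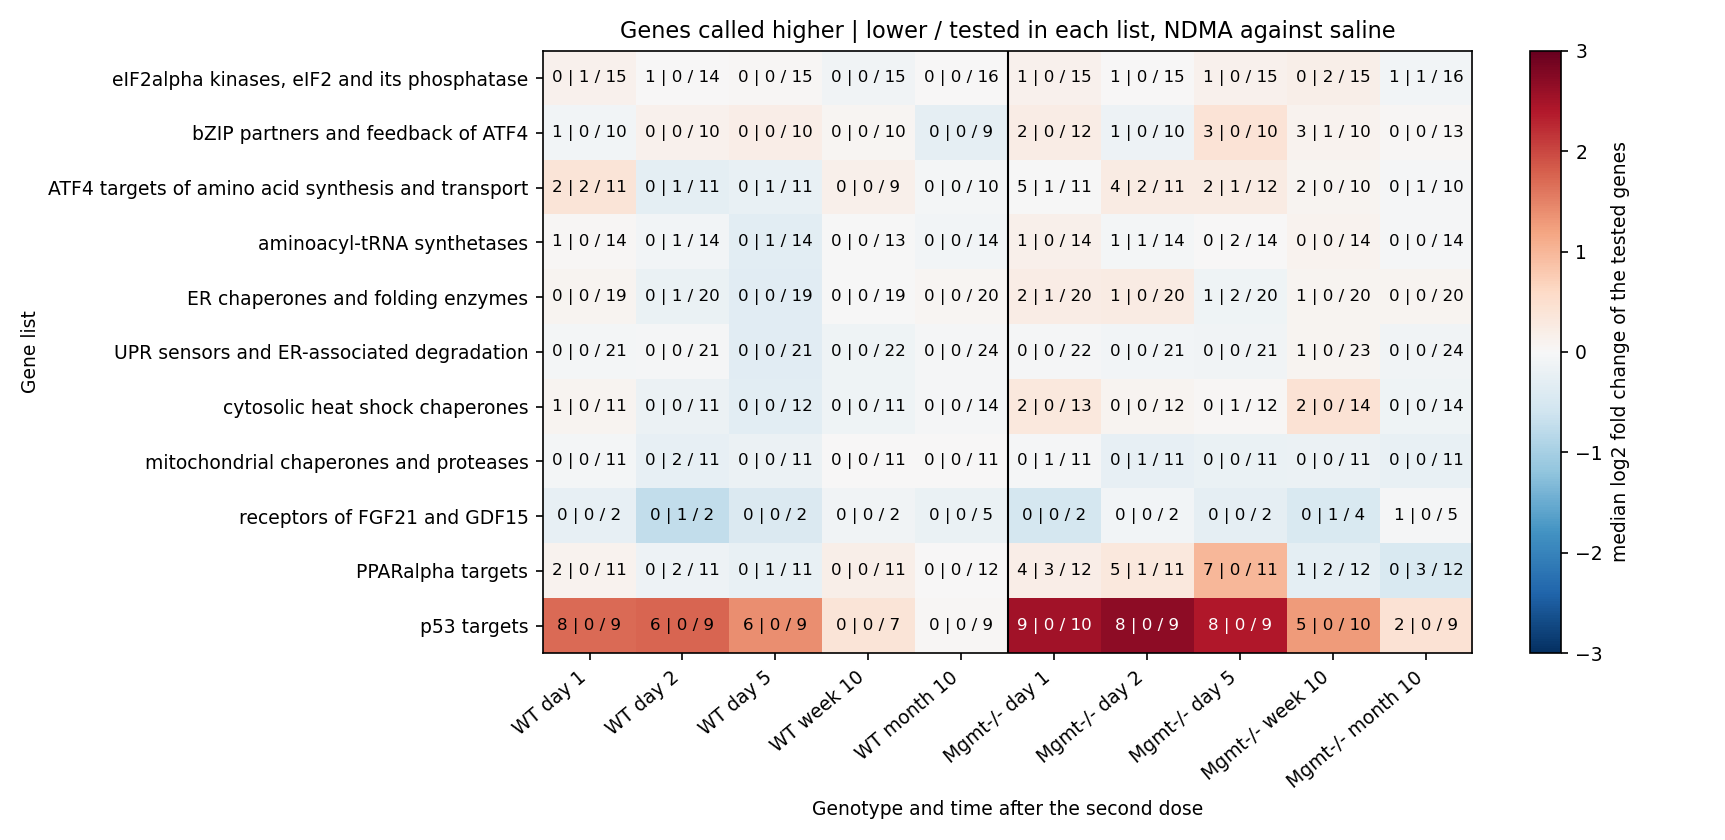
Median log2 fold change of the tested genes (colour) in each list (rows) by genotype and time (columns), with the number of genes called higher | lower and the number tested written in each cell. The p53 list has the highest medians, 1.40 to 1.74 in WT and 2.40 to 2.69 in Mgmt-/- at days 1 to 5.

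Neighbouring stress pathways are given for comparison. Cytosolic heat shock chaperones were higher in 4 and lower in 1 of 65 Mgmt-/- tests and higher in 1 of 59 in WT, with Hsp90aa1 at 0.58 (WT day 1), 0.85 (Mgmt-/- day 1) and 0.74 (Mgmt-/- week 10), Hspb1 at 1.52 (Mgmt-/- week 10) and Hsph1 at -0.72 (Mgmt-/- day 5). Mitochondrial chaperones and proteases were higher in 0 and lower in 2 of 55 tests in each genotype, Clpx at WT day 2 (-0.76) and Mgmt-/- days 1 and 2 (-0.75 at both) and Trap1 at WT day 2 (-0.76). PPARα targets, which like Fgf21 respond to fasting, were split, with 17 higher and 9 lower of 58 in Mgmt-/- and 2 higher and 3 lower of 56 in WT. Acot1 was higher at Mgmt-/- days 1, 2 and 5 (1.52, 2.26 and 2.13) as was Vnn1 (2.06, 1.72 and 1.98). At days 1 and 2 Acot1 passed the filter through the NDMA mice alone, with saline means of 4.24 and 4.10. The p53 targets, of which Gdf15 can be one, were higher in 32 of 47 Mgmt-/- tests and 20 of 43 WT tests and lower in 0. Cdkn1a was called higher in 8 of 10 comparisons and Ccng1 in 7 of 10. Phlda3 was called in the 7 comparisons where it passed the filter, which it did through the NDMA mice alone in all but WT day 2.

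These are whole-liver RNA measurements, in which fewer cells of a type and less RNA per cell cannot be told apart, and markers of several cell types moved with NDMA. Among Mgmt-/- mice the summed hepatocyte markers, of which Alb was mostly the highest, were at 0.632, 0.655, 0.729, 0.721 and 0.979 times the saline level at the 5 times, with 3, 3, 1, 1 and 0 of 5 called lower. At month 10, 1 hepatocyte marker (Apoa1) was called higher. The 9 markers of T and NK cells summed to 2.92, 6.01 and 9.12 times the saline level at days 1, 2 and 5, led by Gzma, and to 2.03 and 2.34 times at week 10 and month 10, with 4, 5, 5, 1 and 0 called higher and none of them tested at month 10. Plasma and B cell markers were at 0.564, 1.03, 0.816, 3.06 and 1.18 times, with Cd79b called lower at day 1 and Jchain higher at week 10. Macrophage and Kupffer cell markers, led by Lyz2, were at 1.29, 2.49, 2.06, 2.01 and 1.87 times, with 3, 6, 6, 5 and 3 of 9 called higher. At day 1, 3 others of them (Clec4f, Csf1r and Vsig4) were called lower. Neutrophil markers, led by S100a8, were at 0.304, 0.407 and 0.186 times at days 1, 2 and 5 and 2.22 and 2.19 times later. Spp1 led the cholangiocyte markers, which were at 0.642, 0.792 and 0.395 times the saline level at days 1, 2 and 5, with Spp1 called lower at days 1 and 5, and at 6.35 and 7.26 times at week 10 and month 10, with Spp1 called higher at both. Their sum at month 10 was 660 ± 937 with NDMA (SD, n = 13) and 91.0 ± 30.5 with saline (n = 12). Stellate cell and fibroblast markers, led by Dcn, were at 0.730, 0.876, 0.797, 1.69 and 0.982 times, and at week 10, where Ddit3 and Fgf21 were called higher, 4 of the 6 tested were called higher (Acta2, Col1a1, Col1a2 and Col3a1). At days 1, 2 and 5, 4, 3 and 1 of them were called lower and Acta2 higher, and at month 10, 3 were called higher. Endothelial markers, led by Clec4g, were at 0.605, 0.787 and 0.657 times at days 1, 2 and 5, with 3, 1 and 2 called lower. Of these markers, Pecam1 was called higher at day 2 and Cdh5 at day 5. Red cell precursor markers, led by Hbb-bs, were at 0.587, 0.681 and 0.660 times at days 1, 2 and 5, with 4, 2 and 4 called lower. Later they were at 1.33 and 2.39 times, with 0 called. In WT livers the T and NK sum was at 1.70, 2.43 and 2.54 times at days 1, 2 and 5, and the hepatocyte sum at 0.870, 0.714 and 0.912 times. The WT stellate cell and fibroblast sum was then at 0.684, 0.520 and 0.557 times, with 3, 1 and 1 called lower and Acta2 higher at days 1 and 2. The WT macrophage and Kupffer cell sum was at 1.33, 1.13 and 1.69 times, with 5, 2 and 2 called higher and 1, 2 and 0 lower. The cholangiocyte marker Spp1 was called higher and the endothelial marker Stab2 lower at WT day 1. The summed kidney markers were below 7 in every group compared, and all 5 hepatocyte markers were tested in every comparison. The part of these shifts in the member results was not tested.

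Correlations between members were taken across mice with group, sex and batch means removed, for all members but Atf3, and low values for Gdf15, Trib3 and Fgf21, which had few reads per library, are not read as independence. The highest was between Hspa5 and Sdf2l1 (Pearson r = 0.44 over 117 WT and 0.44 over 94 Mgmt-/- libraries, given as a description across libraries that share depth). Ddit3 and Herpud1 had r of -0.25 and -0.30, and Trib3 and Herpud1 -0.20 and 0.32. Of 4923 genes with enough counts, Hsp90b1, Creld2 and Manf, all ER proteins, were among the 10 most like Hspa5 in both genotypes (r = 0.55 and 0.77, 0.68 and 0.61, and 0.62 and 0.61). The same rule named Cyp2d9, Selenbp2 and Serpina1e for Asns (r = 0.47 and 0.67, 0.47 and 0.66, and 0.47 and 0.61) and Klf15 for Herpud1 (0.61 and 0.59). Sex was removed by the same term at all times of a genotype. Sex differences present at some times only, as described for Asns above, therefore stay in these values, and their part in the r values was not tested. No gene met the rule for Atf4 and Sdf2l1, and the other members had too few counts to be compared.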

How the data were processed

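Libraries were made by 3′ digital gene expression from liver RNA with primers that carry unique molecular identifiers. The authors aligned reads with STAR to GRCm38, counted tags with ESAT and deposited a signal per gene: counts divided by DESeq2 size factors, separately for each genotype. Versions of these upstream tools are not given in the sources used here. Whole reads were recovered by dividing each library by the value of 1 read (tolerance 0.1). In the libraries used for count tests, 100% of values came out whole. Count tests used 114 of 117 WT and 95 of 96 Mgmt-/- libraries, since in the others (3 WT saline at day 2, 1 Mgmt-/- NDMA at day 1) the value of 1 read was too near 1 to be told from rounding, and edgeR was also run with all of them.

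NDMA was compared with saline within genotype and time by limma 3.58.1 (R 4.3.3, trend and robust) on log2(value + 1), for genes with a mean of at least 5, with sex and batch as terms and Benjamini-Hochberg adjustment. The genotype by treatment term was fitted to these reads by the quasi-likelihood test of edgeR 4.0.16 after TMM scaling, and times were compared by limma within a batch of Mgmt-/- libraries. Alternatives changed the pseudocount, filter, covariates, scaling, tool (edgeR, DESeq2 1.42.0), batches and libraries, and were run after the steps had been tested on simulated data. Atf3 was tested by permutation (scipy 1.17.1), and figures were drawn with matplotlib 3.10.9. No column of another series was found. The members and lists were chosen with earlier results of these data known, so no list count is independent support. Named genes were up to 3 per list, those called in the most comparisons and then with the largest mean absolute change, plus the kinases, sensors and receptors named beside them. Likeness was Pearson r after removing group, sex and batch means, over genes averaging 20 or more, and a gene was named if among the 10 highest in both genotypes, up to 3 per member. Libraries were set against their labels by Cdkn1a, itself raised by NDMA: where group medians differed at least 5-fold, a library on the wrong side of their geometric midpoint was counted as standing apart. A gene named by the rule for lists is not reported here.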

Additional observations from a re-analysis of the deposited data

Results flagged for a closer look

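In groups of 4 to 10 mice, the highest or lowest value was compared with its nearest neighbour by Dixon's criterion, which chance meets in about 1 in 20 groups, and 15 of 130 groups met it. NDMA replicate D215006 (WT day 2, 150038 reads, the shallowest library) accounted for 4 of these, with Atf4 at 10.5 (next lowest 28.4), Trib3 at 84.1 (next highest 16.8), Fgf21 at 0 (next lowest 5.57) and Herpud1 at 52.6 (next lowest 187). NDMA replicate D215014 (WT day 5, 202626 reads) was lowest in Herpud1 at 90.2 (next 172) and in Sdf2l1 at 0 (next 8.04). Mgmt-/- saline replicate D209001 at week 10 was highest in both Hspa5 at 1220 (next 619) and Herpud1 at 1064 (next 404). WT saline replicate D202018 at week 10 was highest in Hspa5 at 1752 (next 683). At Mgmt-/- day 2, Atf3 stood apart in saline replicate D389012 at 1.91 (3 reads), with every other saline mouse at 0. Any read in only 1 mouse would have met the criterion there, so the share of about 1 in 20 does not apply and no weight is given to this flag. In the NDMA group of that time, Atf3 stood apart in replicate D389053 at 0, with the next at 2.39. At Mgmt-/- week 10, saline replicate D209025 was lowest in Atf4 at 75.5 (next 121), NDMA replicate D209005 was lowest in Trib3 at 0 (next 9.99) and NDMA replicate D209006 was highest in Sdf2l1 at 97.0 (next 53). WT saline replicate D215028 at month 10 was lowest in Gdf15 at 0 (next 2.52).

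The response differed between genotypes, by a tested genotype by treatment term, for Asns at day 5 (1.78 on the log2 scale, edgeR adjusted p = 0.00338; limma gave 1.45, not called, and the WT change was -1.22 in males and 0.56 in females) and Ddit3 at week 10 (1.84, edgeR adjusted p = 0.0208). At both times genotype and batch cannot be told apart.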

How the results depend on the processing

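Of 267 values of the 24 member calls under alternatives, 226 kept direction and call, 41 kept direction without the call and 0 reversed. Of 238 values with 1 mouse left out, 202 kept the call, 36 lost it and 0 reversed. Ddit3 in Mgmt-/- (4 calls), Asns at Mgmt-/- days 2 and 5, Gdf15 at Mgmt-/- days 1, 2 and 5 and Fgf21 at Mgmt-/- day 5 kept their calls under every alternative run. The cause of the losses was not tested.

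For WT day 1, where 2 members were called, 1 was called with a mean of at least 20, 0 in batch 200803Eng, 5 in batch 210901Eng, 4 without 2 libraries of mismatched sex genes and 5 without a fold threshold. The calls over all genes at WT day 1 were 452 higher and 378 lower. They were 567 and 478 in batch 210901Eng, 524 and 450 without those 2 libraries, and 994 and 909 without a fold threshold. For WT day 2 (1 called), 0 were called with a mean of at least 20, in batch 200724Eng and in females, and 2 without the library standing apart in Cdkn1a (a choice made after seeing the data, as were the fits by sex). For WT day 5 (2 called), 1 was called with no filter, with a mean of at least 20, with no covariates and in edgeR, and 0 in batch 200724Eng and in females. For Mgmt-/- day 1 (5 called), 2 were called with a mean of at least 20, in batch 200803Eng and in males, and 3 in edgeR, and for Mgmt-/- day 2 (6 called), 3 with a mean of at least 20 and in males. For Mgmt-/- week 10 (2 called), 1 was called in edgeR and in males, 4 in DESeq2 and 5 in females, and for Mgmt-/- month 10 (1 called), 0 in edgeR, in DESeq2 and in males. A called member below the filter of an alternative was not tested there, so a lower count is not always a lost call. In edgeR this held for Fgf21 at Mgmt-/- week 10 and for Gdf15 at Mgmt-/- day 1 and WT day 5. For the genotype by treatment term, limma and edgeR with every library (added after seeing the data) each called 1 member at day 2, Gdf15 (0 in edgeR as planned), and at day 5 limma called 0 (1 in edgeR, Asns, with no library left out). With each mouse left out in turn, the counts ran from 1 to 2 at WT day 2 and 0 to 2 at WT day 5, and from 5 to 6, 4 to 6 and 2 to 3 at Mgmt-/- days 2 and 5 and week 10. Groups of over 8 mice were not left out in turn.

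No paired analysis was possible because replicate identifiers are unique to a mouse and shared by no groups. Scaling every library to the same total moved the median of all genes by 0.19, 0.16, 0.14 and 0.20 at Mgmt-/- days 1, 2 and 5 and week 10, and the share of higher calls from 51.2% to 76.2%, 62.2% to 80.2%, 62.4% to 77.8% and 65.2% to 86.8%. It moved the share from 54.5% to 65.5% at WT day 1 and 53.4% to 68.1% at WT day 2. Over all genes, the genotype by treatment term gave 1 call at day 1 in edgeR, 80 in limma, 26 in edgeR with every library and 14 within shared batches, 356 at day 2 and 606 with every library, and 137 at month 10, 28 without batch and sex and 2 within shared batches. WT day 5 gave 192 higher and 120 lower genes, 104 and 46 without covariates, 275 and 320 in edgeR, and 320 and 356 in DESeq2. Atf3, and Gdf15 in saline mice, rest on a few reads per library, so small differences were not detectable at this depth.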
